A study of Schmidtea mediterranea with 48 samples.

Results

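Head pieces of planarians (*Schmidtea mediterranea*, asexual strain CIW4) after 4 weeks of *nr4A* RNAi were compared with head pieces of animals fed control dsRNA for the same time. These were 6 of the 48 libraries of a series that followed heads and tails over 4 time points, and their groups were taken from the labels: 3 *nr4A* RNAi and 3 control libraries, numbered 1 to 3 in each group. Control dsRNA matched *unc-22*, a *Caenorhabditis elegans* gene. All animals received dsRNA in liver 2 times a week, were starved before cutting, and had the head removed just behind the eyes, and each library was made from polyA RNA of 6 pooled pieces. RNAi acts in every cell that takes up dsRNA, so the comparison is between whole head pieces and not between muscle cells. In such bulk pieces, fewer cells of a type and less RNA per cell cannot be told apart.

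NR4A proteins are nuclear receptors, transcription factors that act without a known bound hormone. Planarian muscle carries the positional information of the body: muscle fibres express position control genes in regional domains, and small groups of muscle cells at the head tip and the tail tip form the anterior and posterior poles. *nr4A* is expressed in planarian muscle, and the comparison asked which transcripts of the head depend on it.

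The transcripts are named by contig numbers of the transcriptome assembly (dd_12229 is *nr4A*). Names in brackets are those the study gives, mostly the best human protein match, and they do not show that the planarian protein has the human function. The cloning primers below, designed by the study, are shown because they mark the transcript that was silenced and 5 of the 9 contigs on which the main result rests. All are written in lower case from the 5′ end.
nr4A forward: cgcgagtcagtcagccat
nr4A reverse: tgccgtggctggatgaag
dd_11601 (qki) forward: caatctttcacaaatcgtgtcca
dd_11601 (qki) reverse: caacgcagagttcaaacaatgc
dd_9565 (col21a1) forward: tggtgacaaatgaatgctcact
dd_9565 (col21a1) reverse: accaggatcaccttgggga
dd_3902 (mmp19) forward: tgcgatagaatttttaggggca
dd_3902 (mmp19) reverse: cttgggttgtgctggggt
dd_11683 (ca12) forward: tggattactgatcttcgcttttg
dd_11683 (ca12) reverse: tcttcagcagtcatcaaactaga
dd_2972 forward: caacaacagaagaacaaacaacc
dd_2972 reverse: cagtatttcgtacgctctttgca

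The libraries held 15808738 to 27491137 reads on contigs, and all 6 carried the same run name in their labels. The pieces had the markers of heads: in week 4 control libraries *ndk* (dd_11285), *sfrp1* (dd_13985) and *fz5/8-4* (dd_11823), all expressed in the head, stood 107, 44.3 and 15.1 times higher than in control tails, and the tail gene *wnt11-2* (dd_16209) was at most 0.0519 CPM (read counts scaled to a common library size) in control heads against 42.3 to 53.0 CPM in control tails. Other markers separated the pieces less. Among the named anterior pole contigs, control heads ranged from 0.386 times the control tail level for *kallmann1* to 18.7 times for *ZicA*. *pitx* stood at 0.876 times and *follistatin* at 1.08 times. The tail gene *wntP-1* (dd_28398) had 0.584 times its control tail level in control heads. One library stood apart. In nr4A replicate 2, 2559 of the 18375 contigs tested were more than 1 log2 unit below the mean of the other 5 libraries, against 22 to 115 contigs in each of those 5. Its log2 levels correlated with the others at r = 0.957 to 0.960, while the other 5 correlated among themselves at r = 0.991 to 0.995 (across contigs, which are not independent replicates). The shortfall was mostly in contigs of low level, at 40.9% of those under 1 CPM and 2.22% of those at 100 CPM or more. The results are therefore given with all 6 libraries and also without nr4A replicate 2.

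**Figure D1:**
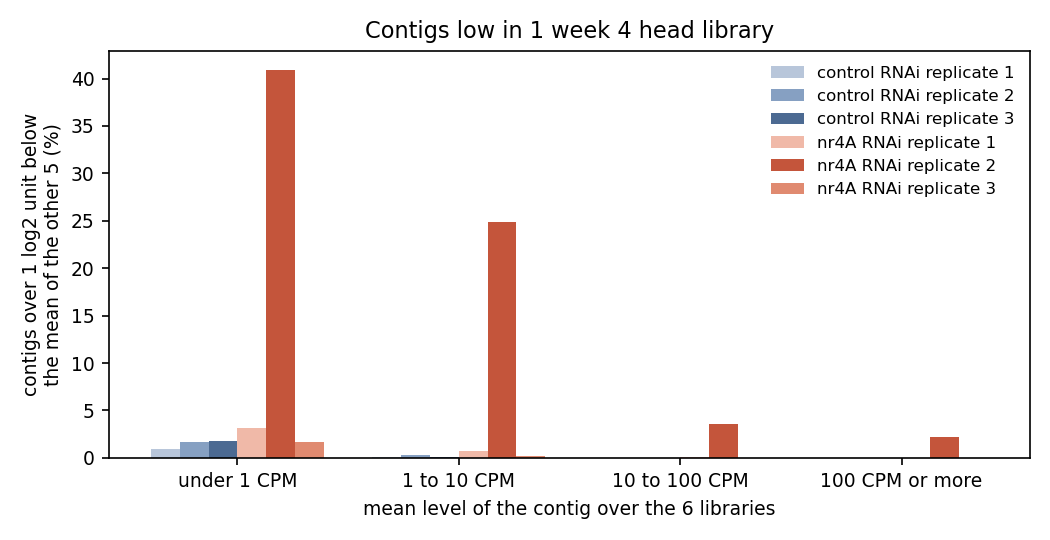
Share of contigs (y axis, percent) that were more than 1 log2 unit below the mean of the other 5 libraries, for each week 4 head library (bars), by the mean level of the contig over the 6 libraries (x axis, CPM). nr4A replicate 2 reaches 40.9% under 1 CPM and 24.8% from 1 to 10 CPM, while no other library passes 3.12% at any level.

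The silenced transcript was read first. *nr4A* (dd_12229) measured 26.3, 27.6 and 29.2 CPM in control replicates 1 to 3 and 18.9, 14.8 and 18.3 CPM in nr4A replicates 1 to 3. All nr4A libraries were below all control libraries, with nr4A replicate 2 the lowest. The mean of the nr4A group was 62.4% of the control mean (27.7 ± 1.47 against 17.3 ± 2.19 CPM, SD, n = 3 each). The log2 fold change was -0.68 ± 0.11 (SE), with an adjusted p of 0.15 over all contigs (edgeR quasi-likelihood test with Benjamini-Hochberg adjustment, threshold 0.05). Without nr4A replicate 2 the log2 fold change was -0.59 with an adjusted p of 0.00049.

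With all 6 libraries, 9 of 18375 contigs passed the threshold, all 9 lower in nr4A RNAi heads, which is 0.0490% of those tested. No contig passed upward by edgeR, although 1445 had an unadjusted p under 0.05 (7.86%), 935 higher (5.09%) and 510 lower (2.78%), and DESeq2 called 144 contigs (0.784%), 110 lower and 34 higher, among them the same 9. On simulated data DESeq2 made 41 false calls and edgeR 5. No simulated library was made to stand apart as nr4A replicate 2 did, so these counts cannot say how many calls are false here. The 9 contigs called by edgeR fell to between 21.0% and 54.4% of the control mean. Leaving out nr4A replicate 2 gave 610 calls (3.24%), 405 lower (2.15%) and 205 higher (1.09%), which included all 9. Leaving out nr4A replicate 3 gave 5 calls, and leaving out nr4A replicate 1 or any 1 of the control replicates gave 0. With 3 against 3 libraries, an exact permutation test of a single contig cannot give a p below 0.1, so the calls rest on the spread pooled across contigs. The p-values measure the spread between these pools of animals.

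Most contigs moved little. Over all 18375 contigs the median log2 fold change was 0.01, with an interquartile range from -0.15 to 0.14. Large differences were more often downward: 118 contigs were below -1 and 31 above 1 on the log2 scale, and 1023 were below -0.5 against 431 above 0.5. Many of these were contigs of low level that did not pass the test. Without nr4A replicate 2, 128 of 18851 contigs were below -1 and 36 above 1, and 691 were below -0.5 against 403 above 0.5. Among the 610 contigs called without nr4A replicate 2, the median change was -0.37 for those lower and 0.32 for those higher, with 50 below -1 and 12 above 1. Of the 405 lower contigs, 173 were at 100 CPM or more, against 41 of the 205 higher contigs. Among all 18375 contigs tested with 6 libraries, 2158 were at that level.

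**Figure D2:**
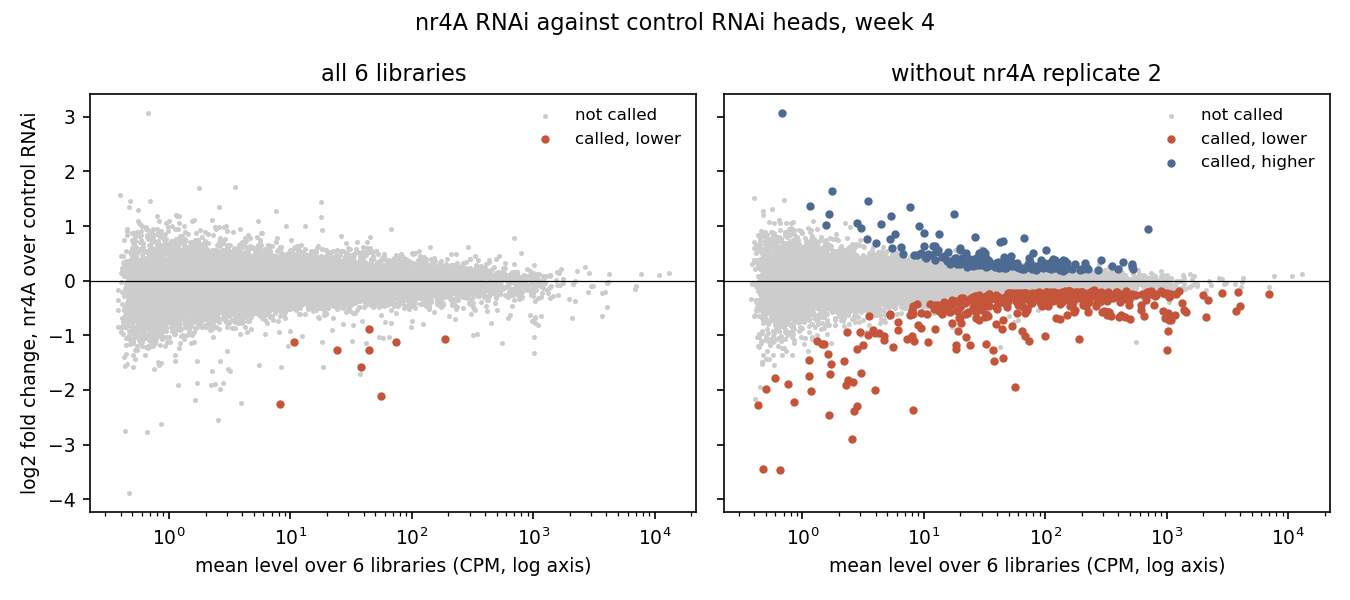
Log2 fold change of each contig (y axis, nr4A over control RNAi) against its mean level over the 6 libraries (x axis, CPM, log axis), with all 6 libraries on the left and without nr4A replicate 2 on the right. Colored points passed an adjusted p of 0.05: 9 lower contigs on the left, and 405 lower and 205 higher contigs on the right.

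The largest of the 9 changes was that of dd_11601 (*qki*), a quaking-like contig; quaking proteins bind RNA and control splicing and stability of messages in other animals. It measured 12.6, 14.2 and 13.6 CPM in controls and 2.73, 3.28 and 2.50 CPM in nr4A RNAi heads. The groups did not overlap, and the 3 nr4A libraries lay within 1 CPM of each other. The log2 fold change was -2.25 ± 0.15 (SE), an adjusted p of 0.00804, and nr4A heads had 21.0% of the control level. It was called in 8 of 13 alternative settings.

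The next 2 by size carry names of extracellular matrix genes. dd_9565 (*col21a1*), with a collagen-like match, measured 101, 88.8 and 84.2 CPM in controls and 22.1, 14.8 and 26.1 CPM in nr4A RNAi heads. The groups were far apart, nr4A replicate 2 being the lowest library. Its log2 fold change was -2.12 ± 0.19 (adjusted p = 0.0303), and -1.94 without nr4A replicate 2. dd_3902 (*mmp19*), with a match to matrix metalloproteinases, enzymes that cut matrix proteins, measured 58.9, 58.6 and 54.0 CPM in controls and 18.0, 16.0 and 23.5 CPM in nr4A RNAi heads. Again no nr4A library reached the lowest control, and the level was 33.5% of control (log2 fold change -1.57 ± 0.14, adjusted p = 0.0278).

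dd_11683 (*ca12*) matches carbonic anhydrases, enzymes that interconvert carbon dioxide and bicarbonate. It measured 33.3, 35.2 and 34.1 CPM in controls and 15.8, 12.3 and 14.5 CPM in nr4A RNAi heads (log2 fold change -1.27 ± 0.10, adjusted p = 0.0213). dd_2972, which has no name, measured 65.8, 62.4 and 61.4 CPM in controls and 22.5, 31.6 and 25.1 CPM in nr4A RNAi heads (log2 fold change -1.26 ± 0.13, adjusted p = 0.0379). In this contig nr4A replicate 2 was the highest of the nr4A libraries, and without it the log2 fold change was larger, -1.42. dd_18940, also unnamed, measured 14.6, 16.0 and 13.6 CPM in controls and 6.90, 6.68 and 6.73 CPM in nr4A RNAi heads (log2 fold change -1.12 ± 0.11, adjusted p = 0.0364).

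The other 3 called contigs have no name in the sources used here. dd_3719 measured 95.8, 102 and 104 CPM in controls and 47.9, 45.1 and 46.4 CPM in nr4A RNAi heads (log2 fold change -1.12 ± 0.07, adjusted p = 0.00804). dd_6337 measured 254, 243 and 267 CPM in controls and 116, 120 and 129 CPM in nr4A RNAi heads (log2 fold change -1.07 ± 0.07, adjusted p = 0.00916). They fell to 46.1% and 47.7% of control, with no overlap between groups. dd_8340 measured 54.5, 63.5 and 53.4 CPM in controls and 29.6, 30.9 and 32.7 CPM in nr4A RNAi heads (log2 fold change -0.88 ± 0.09, adjusted p = 0.0421). Its change was the smallest of the 9. Across the 9 contigs, nr4A replicate 2 was the lowest nr4A library in 5 and the highest in 2. In all 9, nr4A replicates 1 and 3 were also below every control library, and the fold changes ranged from -2.37 to -0.89 on the log2 scale without it.

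**Figure D3:**
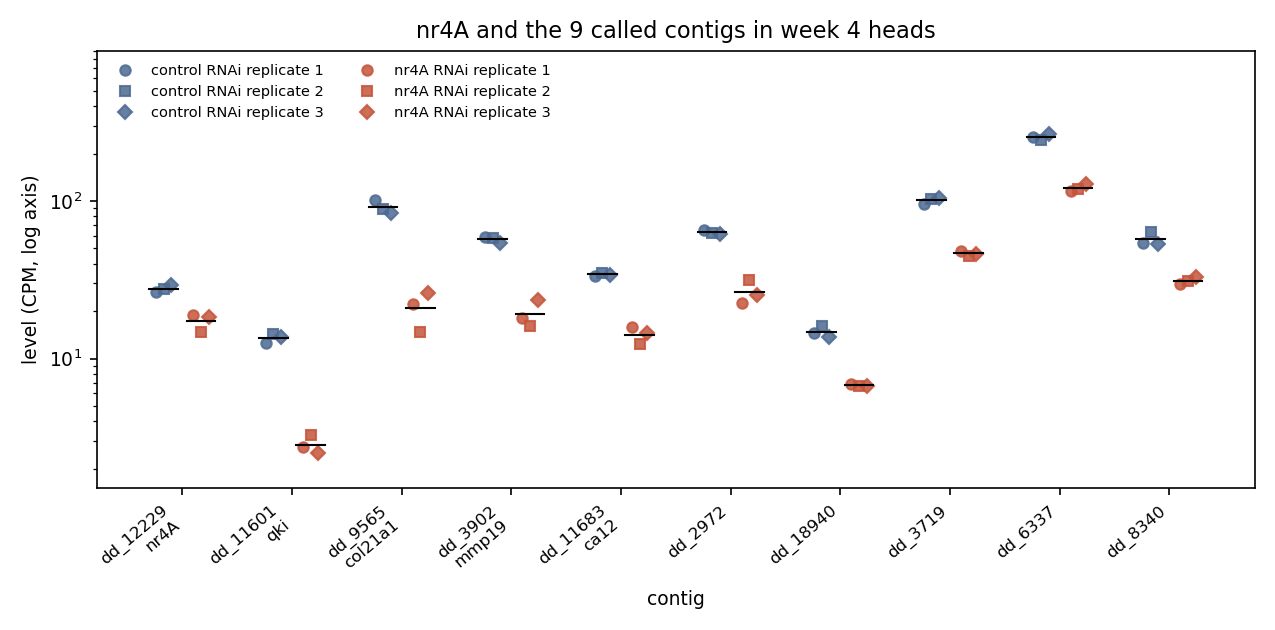
Level (y axis, CPM, log axis) of *nr4A* (dd_12229) and the 9 called contigs in each of the 3 control and 3 nr4A RNAi libraries at week 4 (points), with group means (lines). In every contig shown the 3 nr4A libraries lie below the 3 control libraries, from 21.0% of the control mean for dd_11601 to 62.4% for *nr4A*.

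Just outside the threshold stood dd_5509, with no name, at 82.5, 88.0 and 90.4 CPM in controls and 47.5, 35.4 and 44.6 CPM in nr4A RNAi heads (log2 fold change -1.03, adjusted p = 0.059). Contigs of low level had equally large differences that did not pass: dd_8317 had 4.34 ± 0.577 CPM in controls and 0.75 ± 0.338 CPM in nr4A heads (log2 fold change -2.55, adjusted p = 0.0837), and dd_16103 had 6.49 ± 0.773 against 1.36 ± 0.467 CPM (log2 fold change -2.23, adjusted p = 0.0786). dd_34500 had 2.70 ± 0.469 against 0.595 ± 0.195 CPM (log2 fold change -2.18, adjusted p = 0.102). In all 4 contigs every nr4A library was below every control library, as in 1371 contigs overall (7.46% of those tested), and all 4 passed without nr4A replicate 2. The study cloned 10 contigs as *nr4A*-dependent, a part of those it picked on these libraries among others, so they are no independent evidence. All 10 were below 0 (median -1.03), 5 of them among the 9 calls, and the 5 others, dd_508, dd_950 (*vim*), dd_9677 (*pcdh11y*), dd_1706 (*psapl1*) and dd_2736 (*hspb1*), had 57.6% to 67.0% of the control level in nr4A RNAi heads and adjusted p from 0.063 to 0.318. All 10 passed without nr4A replicate 2.

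In the upward direction no contig passed with 6 libraries, and the 10 higher contigs with the smallest p had adjusted p from 0.063 to 0.133. First among them was dd_18131, which has no name, at 29.5, 32.8 and 35.0 CPM in controls and 51.7, 52.7 and 54.9 CPM in nr4A RNAi heads (log2 fold change 0.71 ± 0.08, adjusted p = 0.063). The secreted ligand *egf-6* (dd_6222) measured 29.7, 35.8 and 33.2 CPM in controls and 56.4, 63.6 and 52.8 CPM in nr4A RNAi heads (log2 fold change 0.81 ± 0.10, adjusted p = 0.0786). In both contigs every nr4A library was above every control library, as in 1995 contigs overall (10.9%). dd_9434, matching the potassium channel partner *KCNIP1*, had a mean of 43.8 ± 1.85 CPM in controls and 61.6 ± 2.51 CPM in nr4A heads (log2 fold change 0.49, adjusted p = 0.0931). The other 7 were unnamed: dd_28209, dd_8356, dd_65246, dd_5690, dd_19949, dd_4392 and dd_12878, with nr4A means of 145% to 328% of control. All 10 passed without nr4A replicate 2, with log2 fold changes from 0.45 to 1.64. Among the 5 largest positive differences at an unadjusted p under 0.05, dd_7566 rested on 1 library: it had 1.89, 6.74 and 2.50 CPM in nr4A replicates 1 to 3 against 1.07 to 1.84 CPM in controls, and its log2 fold change of 1.36 was 0.57 without nr4A replicate 2 (adjusted p = 0.291).

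Genes of muscle were then described by list. Fibrillar collagens are rod-shaped matrix proteins that planarian muscle secretes. Of 9 contigs with such matches, all tested, 9 were lower and none passed with 6 libraries, at a median log2 fold change of -0.69 beside 0.01 for all contigs. The contig dd_840 (*COL1A2*) measured 1312, 1232 and 1112 CPM in controls and 777, 664 and 752 CPM in nr4A RNAi heads (log2 fold change -0.74 ± 0.10, adjusted p = 0.0826). dd_649 (*COL2A1*) measured 2872, 2584 and 2300 CPM in controls and 1671, 1526 and 1616 CPM in nr4A heads (log2 fold change -0.69 ± 0.10, adjusted p = 0.104). In 8 of the 9 contigs, all but dd_2197 (*COL24A1*), every nr4A library was below every control library, and those 8 passed without nr4A replicate 2. Over all contigs, 7.46% had every nr4A library below every control, and 2.15% were called lower without nr4A replicate 2. The summed level of the 9 was 10670 to 13113.5 CPM in control libraries and 6698 to 7817 CPM in nr4A libraries. Several of these contigs share the same human match, so reads may be divided between near-identical copies and single collagen contigs are uncertain.

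Type IV collagen forms the sheet-like basement membrane under epithelia and around muscle. Its 3 contigs (all matching *COL4A6*) had a median log2 fold change of -0.40, with every nr4A library below every control library in all 3, and none passed with 6 libraries (adjusted p from 0.489 to 0.656). nr4A replicate 2 was the lowest in each, and without it the median was -0.29 and all 3 passed (adjusted p from 0.00963 to 0.0485), beside the 2.15% of all contigs called lower in that comparison and the 7.46% without overlap in the full one. Of 14 other matrix contigs, 8 were lower and 6 higher (median -0.07), and none passed. Without nr4A replicate 2 that median was 0.07 and 2 passed, both lower: dd_11681 (*COLGALT2*, an enzyme that puts sugars on collagen) and dd_6736 (*TNC*, tenascin). dd_11681 had 23.9 ± 2.79 CPM in controls and 15.6 ± 0.746 CPM in nr4A heads.

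Contractile contigs were mostly lower. Of 14 tested, 12 were below 0 and none passed with 6 libraries, at a median log2 fold change of -0.33. Without nr4A replicate 2, 11 of 14 passed, all lower, beside 2.15% of all contigs, and the median was -0.25. The contig with the smallest adjusted p was dd_1772 (*ATP2A2*), matching the pump that returns calcium to the muscle's internal store. It measured 1408, 1380 and 1314 CPM in controls and 733, 537 and 727 CPM in nr4A RNAi heads (log2 fold change -1.04 ± 0.13, adjusted p = 0.0786). The myosin heavy chain contig dd_432 (*MhcA*) had 4507 ± 101 CPM in controls and 2873 ± 374 CPM in nr4A heads (log2 fold change -0.65, adjusted p = 0.155), and dd_5037 (*FHL1*) had 111 ± 2.37 against 77.5 ± 6.32 CPM (log2 fold change -0.52, adjusted p = 0.113). A second *MhcA* contig, dd_1434, showed what 1 library can do to a mean: it measured 278, 61.2 and 305 CPM in nr4A replicates 1 to 3 and 423, 428 and 432 CPM in controls. Its log2 fold change was -0.99 with 6 libraries (adjusted p = 0.681) and -0.57 without nr4A replicate 2 (adjusted p = 3.4e-05).

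The muscle transcription factors *myoD* (dd_12634) and *nkx1-1* (dd_19327), which specify longitudinal and circular fibres in planarians, stood at 102% and 90.0% of the control mean and overlapped between groups, with log2 fold changes of 0.03 ± 0.09 and -0.15 ± 0.19. The study's list of 576 contigs enriched in *nr4A*-expressing muscle cells, of which 572 were tested, had a median log2 fold change of -0.01, with 300 below 0 and 272 above. None of the 572 passed with 6 libraries, and 39 lower and 6 higher contigs passed without nr4A replicate 2, where 2.15% of all contigs passed lower and 1.09% higher.

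Position control genes were described next. The *ndk* family encodes FGF receptor-like proteins without a kinase domain, and *ndk* restricts brain tissue to the head. The list held 3 contigs of the family, and *ndl-2* and *ndl-3*, which the study also describes, were not among them. *ndl-5* (dd_5102) measured 294, 284 and 263 CPM in controls and 186, 133 and 196 CPM in nr4A RNAi heads. All nr4A libraries were below all controls, and the log2 fold change was -0.71 ± 0.14 (adjusted p = 0.289). Without nr4A replicate 2 it was -0.57 and passed (adjusted p = 6.7e-05). *ndk-4* (dd_12674) measured 128, 137 and 142 CPM in controls and 176, 166 and 165 CPM in nr4A heads, every nr4A library being above every control (log2 fold change 0.32, adjusted p = 0.367). *ndk* (dd_11285) had 255 ± 2.05 CPM in controls and 284 ± 23.3 CPM in nr4A heads (log2 fold change 0.15, adjusted p = 0.686). Without nr4A replicate 2, *ndk-4* and *ndk* passed upward, with log2 fold changes of 0.32 and 0.20. Of all contigs, 1.09% passed upward and 2.15% downward without that library. With 6 libraries, 10.9% had every nr4A library above every control, and 7.46% had every nr4A library below.

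Wnt signals set the head-to-tail axis of planarians, with several Wnt ligands made in the tail and Wnt inhibitors in the head. Some Wnt ligands, such as *wnt2*, are also expressed in the head. Of 15 contigs in the Wnt list, 14 were tested, 9 were above 0 and none passed with 6 libraries (median log2 fold change 0.06). The ligand *wntP-1* (dd_28398) was low in heads, at 1.84, 1.86 and 2.00 CPM in controls and 4.02, 3.40 and 3.91 CPM in nr4A RNAi heads (log2 fold change 0.99 ± 0.19, adjusted p = 0.223). The secreted Wnt inhibitor *sfrp1* (dd_13985) had 98.6 ± 8.56 CPM in controls and 135 ± 15.1 CPM in nr4A heads (log2 fold change 0.45, adjusted p = 0.436). The Wnt receptors *fz5/8-4* (dd_11823) and *fzd-5/8-3* (dd_16571) had nr4A means of 126% and 141% of control. In these 4 contigs every nr4A library was above every control library, as in 5 of the 14 tested and in 10.9% of all contigs. The 4 passed upward without nr4A replicate 2 (1.09% of all contigs did). The Wnt effector *beta-catenin-1* (dd_2688) had 440 ± 11.2 CPM in controls and 391 ± 90.2 CPM in nr4A heads, with overlap, and a log2 fold change of -0.17 that was 0.00 without nr4A replicate 2. *wnt11-2* (dd_16209) had too few reads in heads to be tested.

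Of 10 named anterior pole contigs, 8 were above 0 and none passed with 6 libraries (median log2 fold change 0.21). The largest difference was in dd_20026, which has no name. It measured 1.62, 1.39 and 1.85 CPM in controls and 5.46, 6.93 and 3.55 CPM in nr4A RNAi heads, so that the lowest nr4A library was above the highest control. The log2 fold change was 1.71 ± 0.29 (adjusted p = 0.162), and 1.46 without nr4A replicate 2, where it was the only one of the 10 to pass (adjusted p = 0.00239). *foxD* (dd_23249), a transcription factor needed to form the anterior pole, had 2.97 ± 0.634 CPM in controls and 3.37 ± 0.506 CPM in nr4A heads, with overlap. The Wnt inhibitor *notum* (dd_24180) had 7.74 ± 1.09 against 10.3 ± 0.679 CPM without overlap (log2 fold change 0.42, adjusted p = 0.567). In 4 of the 10, dd_20026 and *notum* among them, every nr4A library was above every control, as in 10.9% of all contigs. *ZicA* (dd_22585) and *zic-2* (dd_15531), transcription factors of the pole, were at 85.8% and 97.3% of the control mean, with overlap as in *foxD*.

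The study's longer lists of pole-enriched contigs were read by counts, each as distinct contig numbers, so that repeated entries count once, and with *nr4A* itself left out of the anterior lists. Over all contigs, 51.6% were above 0, 5.09% were higher and 2.78% lower at an unadjusted p under 0.05, and 1.09% passed higher and 2.15% lower without nr4A replicate 2. Of 166 tested contigs enriched in the pole piece of uninjured animals, 114 were above 0 with a median log2 fold change of 0.10. Of 69 enriched in the pole piece of the anterior blastema of regenerating trunks, 53 were above 0, with a median of 0.21. Of these 69, 25 were higher at an unadjusted p under 0.05 against 2 lower. The 2 anterior lists share contigs, so they are not separate observations. None of either list passed with 6 libraries, and without nr4A replicate 2 the 2 lists had 24 and 16 higher calls and 10 and 2 lower calls. The 182 tested contigs enriched at the posterior pole had a median of 0.01, and 97 were above 0. Of these, 18 were higher and 3 lower at an unadjusted p under 0.05, and none passed with 6 libraries. Without nr4A replicate 2, 9 passed higher and 3 lower, so calls leaned upward in this list too. Of 17 contigs (Slit, BMP, Hedgehog, Netrin, Notch and Eph members), 12 were above 0 at a median of 0.14, none passed with 6 libraries, and *DLL1* (dd_13823, a Notch ligand) and 1 of 2 *EPHA4* contigs (dd_16928) passed upward without nr4A replicate 2.

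**Figure D4:**
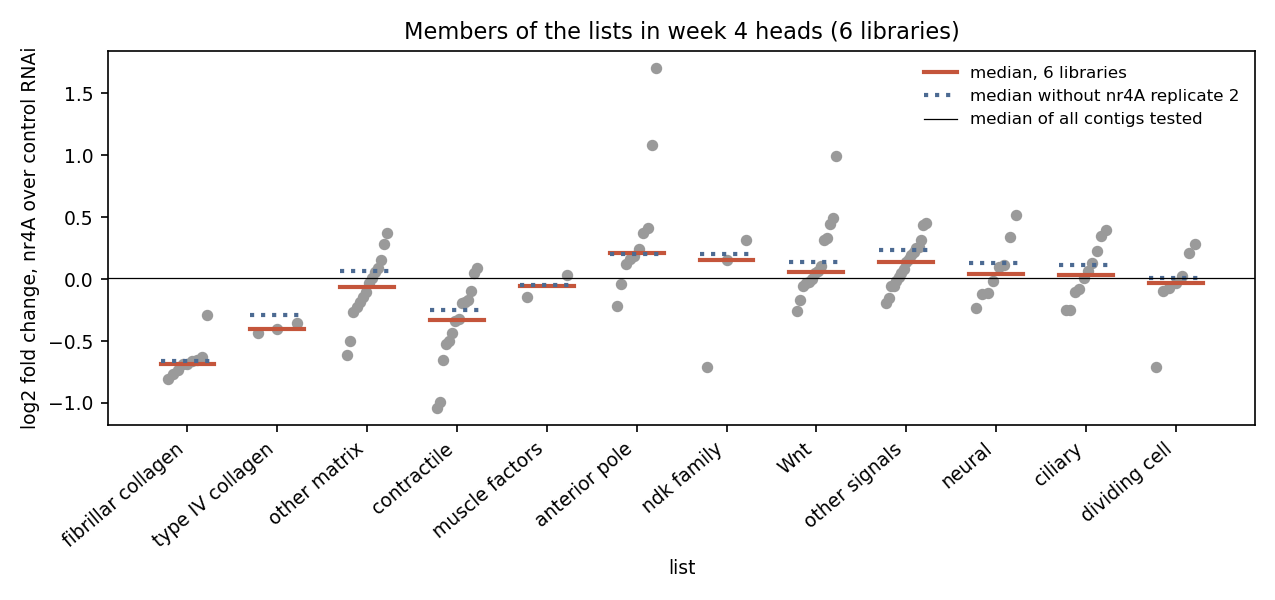
Log2 fold change (y axis, nr4A over control RNAi, 6 libraries) of each tested contig (points) of 12 lists (x axis), with the list median from 6 libraries (solid line), the median without nr4A replicate 2 (dotted line) and the median of all contigs tested (thin line, 0.01). Fibrillar collagen lies lowest with a median of -0.69, then type IV collagen (-0.40) and contractile contigs (-0.33).

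Markers of other cell types were read beside these lists. The neural list (8 contigs, among them the neuropeptide-processing enzyme *PC2*) had a median log2 fold change of 0.04 and a summed level of 992 to 1056 CPM in controls and 994 to 1113 CPM in nr4A libraries. Without nr4A replicate 2 its median was 0.13 and 1 contig passed, *prohormone-13* (dd_1538, a neuropeptide precursor), with a log2 fold change of 0.30 (adjusted p = 0.0248). It measured 31.1, 33.8 and 31.6 CPM in controls and 41.3, 58.5 and 38.2 CPM in nr4A heads. The ciliary list (10 contigs) had a median of 0.04 and a sum of 1380 to 1396 CPM in controls and 1067 to 1364 CPM in nr4A libraries, lowest in nr4A replicate 2, without which the median was 0.11 and none passed. The list of dividing cells (7 contigs) had a median of -0.03 and sums of 114 to 120 CPM in controls and 115 to 125 CPM in nr4A libraries, with a median of 0.01 and none passing without nr4A replicate 2. None of these contigs passed with 6 libraries. *agat-1* (dd_920), a marker of epidermal progenitors, had 448 to 458 CPM in controls and 338, 393 and 387 CPM in nr4A heads, all nr4A libraries below all controls (log2 fold change -0.28, adjusted p = 0.509), and it passed without nr4A replicate 2 (adjusted p = 0.00447). Over all contigs, 1.09% passed higher and 2.15% lower without nr4A replicate 2. With 6 libraries, 7.46% had every nr4A library below every control. The part of cell makeup in the changes of the muscle lists was not tested.

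The same 9 contigs were read in libraries that share none of these samples. In heads at week 3, where 670 contigs were called lower (3.65% of those tested), all 9 were called lower, with log2 fold changes from -1.76 to -0.64. In heads at week 2 all 9 were below 0 but none was called (no contig was called at that time), with log2 fold changes from -1.14 to -0.22. In heads at week 5, where 2 contigs were called lower (0.0111%), these 2 were dd_11683 and dd_8340, and the 9 ranged from -2.58 to -1.14. *nr4A* itself had log2 fold changes of -0.52, -0.49, -0.68 and -0.90 in heads at weeks 2, 3, 4 and 5. The log2 fold change at week 4 minus that at week 3 lay between -0.86 and -0.16 for the 9, but no such difference passed: 0 of 19010 passed by edgeR (701 at an unadjusted p under 0.05), and 0 of 18935 between week 4 and week 5 (367 at an unadjusted p under 0.05). The difference of dd_9565 between weeks 4 and 3 was -0.86 ± 0.21 (SE) with an adjusted p of 0.806, and that of dd_3902 was -0.61 ± 0.16 with the same adjusted p.

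Read the other way, the week 3 calls were followed into week 4. Of the 670 contigs lower at week 3, 489 (73.0%) were also below 0 at week 4, against 48.4% of all contigs tested, and 287 were called lower at week 4 once nr4A replicate 2 was left out. Of the 294 higher at week 3, 226 (76.9%) were above 0 at week 4, against 51.6% of all contigs, and 100 were called higher without that library. No contig called at week 3 was called in the opposite direction at week 4 without it. dd_20026 and *wntP-1*, not called at week 4, were called higher at week 3 (adjusted p = 0.0477 and 0.0228). Of the other named anterior pole contigs, *ZicA* (dd_22585) was called lower at week 3, with a log2 fold change of -0.36 (adjusted p = 0.0128), and none of the remaining 8 was called. All 3 contigs of the *ndk* family were called at week 3, 1 lower and 2 higher. Of 14 Wnt contigs tested there, 5 were called higher, *wntP-1* among them, and none lower. Over all 18377 contigs tested in heads at week 3, 670 were called lower (3.65%) and 294 higher.

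**Figure D5:**
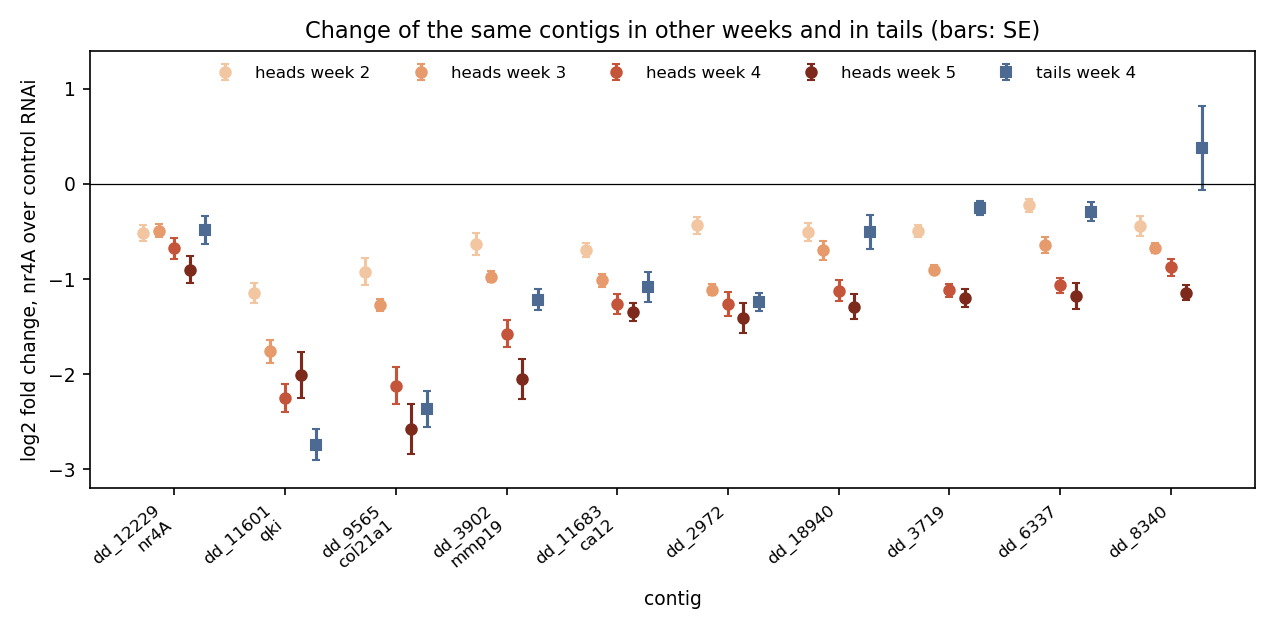
Log2 fold change (y axis, nr4A over control RNAi, error bars SE) of *nr4A* and the 9 called contigs in heads at weeks 2, 3, 4 and 5 and in tails at week 4, each from its own 3 nr4A and 3 control libraries. dd_11601, dd_9565, dd_3902, dd_11683 and dd_2972 are lower in heads and tails, while dd_3719 has -1.12 in heads and -0.25 in tails at week 4.

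In tails at week 4, where 58 contigs were called lower (0.310%), 5 of the 9 were called lower: dd_11601, dd_9565, dd_3902, dd_11683 and dd_2972, all of them among the 10 contigs the study cloned. The difference between head and tail at week 4 was tested directly, and 1 of 19548 contigs passed (0.00512%). This was dd_3719, which measured 100.8 ± 4.43 CPM in control heads and 46.5 ± 1.39 CPM in nr4A heads, but 54.9 ± 1.35 CPM in control tails and 46.0 ± 0.651 CPM in nr4A tails. Head and tail levels here were each scaled within their own libraries. Its log2 fold change of -0.25 in tails was not called (adjusted p = 0.353). The difference of the log2 fold changes was -0.89 ± 0.09 (SE, adjusted p = 0.00453), and it passed without nr4A replicate 2 as well (adjusted p = 0.00226). dd_6337 differed by -0.81 ± 0.13 in the same direction without passing (adjusted p = 0.141). dd_8340 had few reads in tails, at 0.356 ± 0.0774 CPM in control tails against 57.1 ± 5.55 CPM in control heads, and dd_18940 had 5.42 ± 0.525 CPM in control tails (log2 fold change -0.50 there, adjusted p = 0.621). Leaving out nr4A replicate 2 raised the number of contigs that differed between head and tail to 6.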

How the data were processed

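The deposited tables hold raw read counts per contig for each library. Per the labels and the study's methods, the authors sequenced polyA RNA (TruSeq kit), used CASAVA 1.7.0 and Trimmomatic 0.32, aligned reads with Bowtie to the dd_Smed_v4 transcriptome and tested with DESeq. The authors' tables of their own comparisons hold fold changes and p-values and were not used. From the head counts, 3 rows that are no contig (mitochondrial, ribosomal and unidentified, 12.8% to 17.4% of reads) were dropped and isoform rows were summed, giving 26402 contig numbers. The 6 week 4 libraries held 15808738 to 27491137 contig reads.

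Groups came from the labels. In R 4.3.3, edgeR 4.0.16 (TMM scaling, filterByExpr with a minimum count of 10 and a minimum total of 15, quasi-likelihood F test, two-sided) tested 18375 contigs, with Benjamini-Hochberg adjustment over all of them and a threshold of 0.05. CPM values are TMM-scaled. The common biological coefficient of variation was 14.9%. The script was tested on simulated data in which 200 contigs were given a log2 fold change of 1. edgeR recovered 57.5% of them with 5 false calls. DESeq2 recovered 66% with 41 false calls, and limma with library weights 57.5% with 7. The simulation had no library set apart like nr4A replicate 2. Differences between weeks and between head and tail were interaction terms fitted on 12 libraries.

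Named contigs were those called, the 10 lower and 10 higher with the smallest p, the 5 most negative and 5 most positive at an unadjusted p under 0.05 and a mean of at least 1 CPM, and the members of lists of up to 17. The libraries, contigs and lists were chosen with earlier results of these data known, and several lists came from the study's own tables. Alternatives were RLE scaling, other count filters, DESeq2 1.42.0, limma 3.58.1 with library weights, all 24 head libraries in one fit, a replicate block, and leaving out each library.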

Additional observations from a re-analysis of the deposited data

Results flagged for a closer look

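The response of dd_3719 differed between tissues at week 4. The log2 fold change in heads minus that in tails was -0.89, the only contig to pass the test of that difference over 12 libraries (edgeR, adjusted p = 0.00453), and all 3 nr4A heads were below all 3 control heads.

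Reads outside the contigs, nearly all of them mitochondrial, were used in no comparison. They made up 13.6% of reads in nr4A replicate 1, 17.4% in nr4A replicate 2 and 13.7% in nr4A replicate 3, against 12.8% to 13.4% in the control libraries. The highest share was in the library that stood apart in its contig levels, and the part of these reads in that was not tested. Groups of 3 libraries were not tested for single outlying values.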

How the results depend on the processing

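The count of 9 contigs in heads at week 4 was 9 with RLE scaling, 11 with no count filter and 12 with a mean of at least 100 counts. It rose to 144 with DESeq2, to 218 when the 24 head libraries were fitted together and to 398 with limma's library weights. Leaving out 1 library gave 0 to 610: 610 without nr4A replicate 2, 5 without nr4A replicate 3, and 0 without nr4A replicate 1 or any 1 control replicate. With the replicate number as a block the count was 0. Libraries of the same number did not deviate together (correlations of 0.0028, -0.0288 and -0.1151, and no library correlated best with that of its own number). These values rest on deviations from means of 3 libraries, with nr4A replicate 2 apart, so they cannot exclude a pairing. Whether libraries of the same number share a preparation was not tested. The 1 contig that differed between heads and tails became 0 with the replicate block, and leaving out 1 library gave 1 to 6, with 6 without nr4A replicate 2. The counts of contigs that differed between week 4 and week 3 or week 5 were 0 under every alternative run. No direction of a named contig that had been called was reversed. For single named contigs, 1590 values kept their side of the threshold, 188 passed where they had not, and 49 no longer passed; of the list medians, 233 moved by less than their spread between libraries and 14 by more. The cause of these moves was not tested. No scaling shifted the median of all contigs by 0.1 on the log2 scale. Precision was lowest under 1 CPM: leaving out the outer 5% on each side, log2 fold changes ran from -0.90 to 0.57 there and from -0.30 to 0.21 at 100 CPM or more.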

Other observations

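One contig, singled out after its values were seen, had a large difference at a high level without passing the test. dd_579, which has no name in the sources used here, measured 522, 506 and 503 CPM in controls and 1001, 671 and 971 CPM in nr4A RNAi heads. All nr4A libraries were above all control libraries, with nr4A replicate 2 the nearest to controls. The log2 fold change was 0.79 ± 0.15 (SE) with an edgeR adjusted p of 0.223, and 0.94 with an adjusted p of 1.9e-07 without nr4A replicate 2.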
